A study of Gallus gallus with 6 samples.

Results

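The genes described here are the integrin chains, the laminin chains and the hemidesmosome genes of the chicken, followed through the feather cycle. They were chosen by symbol: rows that begin with ITGA, ITGB, LAMA, LAMB or LAMC and a chain number or letter, without the ITGB1BP genes, plus COL17A1, DST and PLEC where present. The rule took 33 of 23724 genes: 18 integrin chains, 12 laminin chains, COL17A1, DST and ITGB3BP. ITGB3BP matched by name only, since it encodes a centromere protein that was named for binding the tail of an integrin chain. ITGA5, ITGA10, ITGAE, ITGAX, ITGB7 and PLEC are not analysed here. Of the 33 genes, 31 had a mean above 1 TPM over all libraries and were tested. LAMA1 (mean 0.0128 TPM) and LAMB4 (0.226 TPM) lay below that limit, and ITGA2B (1.27 TPM) and ITGA4 (1.46 TPM) just above it. TPM, a normalised transcript abundance, scales each value by transcript length and by library, so levels of different genes can be set side by side.

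The samples were papilla ectoderm, the epidermal progenitor sheet around the dermal papilla, from contour feather follicles of untreated White Leghorn chickens. The birds were males between 6 months and 1 year old. After plucking, feathers had regenerated for 3 weeks in the early growth phase, for 7 weeks in the late growth phase and for 10 weeks in the resting phase, and the ectoderm was peeled off the dermal papilla in saline with EDTA. Each phase had 2 bulk RNA-seq libraries, 6 in all, with 1 batch label for all of them. Whether both libraries of a phase stem from separate birds is not stated, so p values measure only the spread between these libraries. In bulk RNA, fewer cells of a type and less RNA per cell cannot be told apart.

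Basal epidermal cells sit on a basement membrane built of laminins, type IV collagens, nidogens and perlecan. Integrins are receptors made of an alpha and a beta chain that span the cell membrane and bind this matrix, either at focal adhesions, which join the actin skeleton, or at hemidesmosomes, which join the keratin filaments. A hemidesmosome holds the integrin of ITGA6 and ITGB4, the transmembrane collagen COL17A1 and plakins such as the epithelial product of DST, and it binds a laminin that holds the LAMA3 and LAMB3 chains.

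All libraries held RNA of epidermal markers, and they also held RNA of other tissues in amounts that differed by phase. The basal keratinocyte markers (KRT5, KRT14, TP63 and 8 others) took 1.30% and 1.40% of TPM during early growth, 1.16% and 1.16% during late growth, and 0.867% and 0.872% during rest. Some genes of that list, such as SFN, GRHL3, CDH1 and EPCAM, are not confined to basal cells. KRT5, KRT14 and TP63 were present in every library. Smooth muscle and pericyte markers took 0.261% and 0.206%, then 0.0331% and 0.0352%, then 3.96% and 4.03%. Fibroblast and dermal papilla markers took 0.222% and 0.224%, then 0.0275% and 0.0289%, then 0.207% and 0.212%. Late growth therefore had the smallest share of both marker lists, and the resting phase the largest share of the smooth muscle and pericyte list. In both resting libraries the smooth muscle and pericyte markers took a larger share than the basal keratinocyte markers. Endothelial and leukocyte markers ranged from 0.00388% to 0.0428% and from 0.00868% to 0.0864%, each lowest in late growth. Red cell and thrombocyte markers ranged from 0.0818% to 1.94%, and no marker of these lists was at 0 in every library. Of the 12 Schwann cell, nerve and melanocyte markers, 4 were at 0 everywhere (S100B, MLANA, TYR and DCT). Early growth replicate 2 stood apart in having 814 of the tested genes at 0, against 124 to 577 in the other libraries.

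Most of these genes fell from early to late growth, and on entry to rest more of them rose than fell. From early to late growth, 2 of the 31 tested genes rose and 20 fell, with a median log2 fold change of −0.77, whereas 5.24% of all 13063 tested genes rose and 28.4% fell, with a median of −0.31. From late growth to resting, 16 rose and 7 fell, with a median of 0.83, beside 24.7% and 23.1% of all tested genes and a median of 0.02. From early growth to resting, 11 rose and 11 fell, with a median of 0.15, beside 15.8% and 34.0% of all tested genes and a median of −0.27. Among the 18 integrin chains, 2 rose and 11 fell early, 7 rose and 6 fell on entry to rest (median −0.01), and 3 rose and 8 fell from early growth to resting. These comparisons share libraries and are not independent of each other. A gene was called at an adjusted p under 0.05 from limma, fitted on log2(TPM + 1) and adjusted by Benjamini-Hochberg over all tested genes. All fold changes below are on that log2 scale, which understates changes of low genes, and all adjusted p values are from the same fit.

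The direction of the early step depended partly on scaling. Median-of-ratios scaling moved the median of all genes at that step from −0.31 to −0.01, and quantile normalization moved it to 0.04. Rises then made up 46.8% and 47.6% of all calls in place of 15.6%. The genes described here stayed mostly lower. With median-of-ratios scaling 4 rose and 16 fell (median −0.43), beside 1728 and 1965 of 13063 tested genes. With quantile normalization 4 rose and 17 fell (median −0.49), beside 1611 and 1775. From early growth to resting, rises made up 31.7% of all calls and 51.3% and 47.1% with these scalings. Over that interval 14 of the genes described here rose and 9 fell with median-of-ratios scaling (median 0.41). Of all 13063 tested genes, 3133 rose and 2971 fell. With quantile normalization 14 rose and 10 fell (median 0.20), beside 3026 and 3395 of all tested genes. Without early growth replicate 2, the median from early to late growth was −0.84 for these genes and −0.42 for all tested genes.

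**Figure D1:**
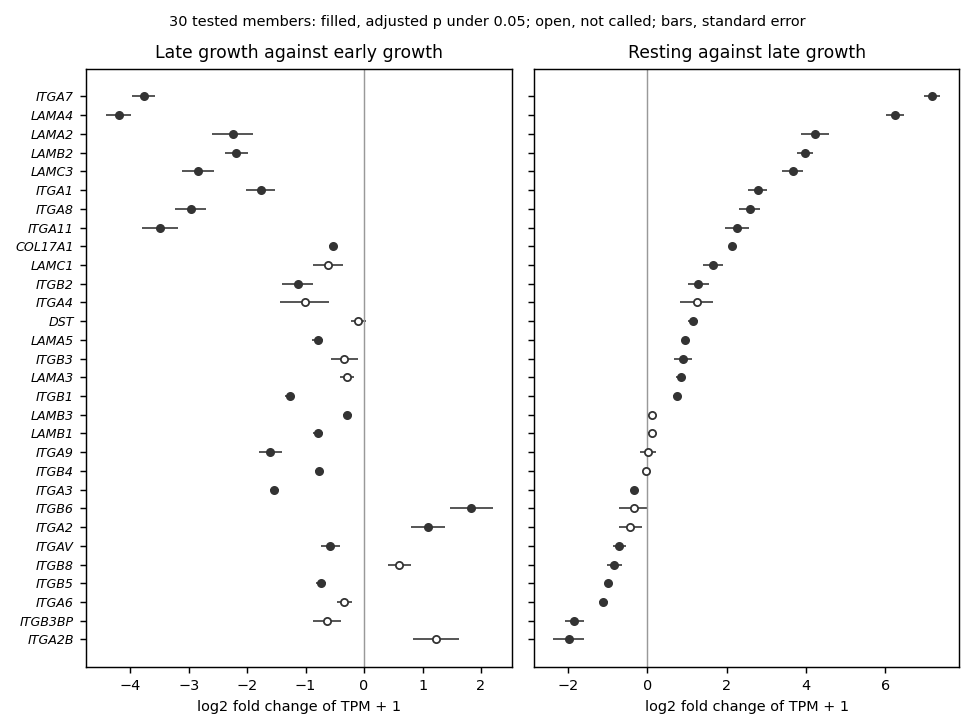
Log2 fold changes of TPM + 1 for 30 of the 31 tested genes from early to late growth (left) and from late growth to resting (right), with bars for the standard error and filled points for an adjusted p under 0.05. Most points lie below 0 on the left (median −0.77), and on the right ITGA7 and LAMA4 lie farthest above 0 at 7.19 and 6.25.

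The hemidesmosome collagen had the highest mean TPM of the set over the 6 libraries, although ITGB1 was higher in early growth, and it rose most among the hemidesmosome genes on entry to rest. COL17A1, whose product reaches from the basal cell into the basement membrane, was at 471 and 481 TPM in early growth, 313 and 345 TPM in late growth, and 1408 and 1471 TPM in the resting phase. The 3 phases did not overlap, and both resting libraries stood far above the rest. It rose 4.37-fold in mean TPM from late growth to resting (log2 fold change 2.13, SE 0.07, adjusted p = 8.9e-06). It rose from early growth to resting by 1.59 (SE 0.07, adjusted p = 3.06e-05). From early to late growth it fell by 0.53 (SE 0.07, adjusted p = 0.00297). With median-of-ratios scaling that early difference was −0.19 (adjusted p = 0.167), and its adjusted p ranged from 0.00228 to 0.167 over the alternatives.

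DST was called on entry to rest and not at the early step. This plakin gene, whose epithelial product ties keratin filaments to the hemidesmosome and which also has nerve and muscle isoforms, was at 120.1 and 106 TPM in early growth, 95.6 and 116 TPM in late growth, and 226 and 247 TPM at rest. Early and late growth overlapped, and both resting libraries were higher. DST rose 2.23-fold in mean TPM from late growth to resting (log2 fold change 1.16, SE 0.12, adjusted p = 0.000654). Its early to late difference was −0.10 (SE 0.12, adjusted p = 0.579). Values per gene do not separate the isoforms of DST.

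Neither chain of the hemidesmosome integrin rose on entry to rest. ITGA6, the alpha chain, was at 338 and 360.2 TPM in early growth, 256 and 298 TPM in late growth, and 141 and 115 TPM at rest. Its phases did not overlap and the resting libraries were lowest. ITGA6 fell by 1.11 on the log2 scale from late growth to resting (SE 0.12, adjusted p = 0.000756) and by 1.45 from early growth to resting (adjusted p = 0.000297). Basal keratinocyte markers fell in 10 of 11 genes from late growth to resting (median −1.05), beside 23.1% of all tested genes. They ranged from −2.22 for SFN, which is not confined to basal cells, to 3.25 for KRT15. KRT5 and KRT14 were at −0.43 and −0.39. The part of these markers' cells in the fall of ITGA6 was not tested. The early to late difference of ITGA6, −0.34 (SE 0.12, adjusted p = 0.0825) was not called. ITGB4, the beta chain that pairs only with ITGA6, was at 256 and 276 TPM in early growth, 153 and 157 TPM in late growth, and 154 and 149 TPM at rest. Early growth was higher than the other phases, which overlapped. ITGB4 fell by 0.77 from early to late growth (SE 0.07, adjusted p = 0.00125), and its difference from late growth to resting was −0.03 (SE 0.07, adjusted p = 0.736).

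Of the hemidesmosome laminin chains, LAMA3 rose at rest and LAMB3 was not called at that step. LAMA3 was at 60.6 and 53.5 TPM in early growth, 43.3 and 49.7 TPM in late growth, and 82.2 and 84.9 TPM at rest. Only the resting libraries stood clearly above the others, and the phases did not overlap. LAMA3 rose from late growth to resting by 0.83 (SE 0.12, adjusted p = 0.00209), after an early difference of −0.29 (SE 0.12, adjusted p = 0.112).

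LAMB3 lay in a narrow range. It was at 116 and 116 TPM in early growth, 94.6 and 94.6 TPM in late growth, and 101 and 104 TPM at rest. The phases did not overlap, and early growth was highest. LAMB3 fell by 0.29 from early to late growth (SE 0.08, adjusted p = 0.0326). That call was lost under several alternatives and the difference was 0.05 with median-of-ratios scaling (adjusted p = 0.712, the highest of a range that began at 0.0279). Its late to resting difference was 0.11 (SE 0.08, adjusted p = 0.275).

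**Figure D2:**
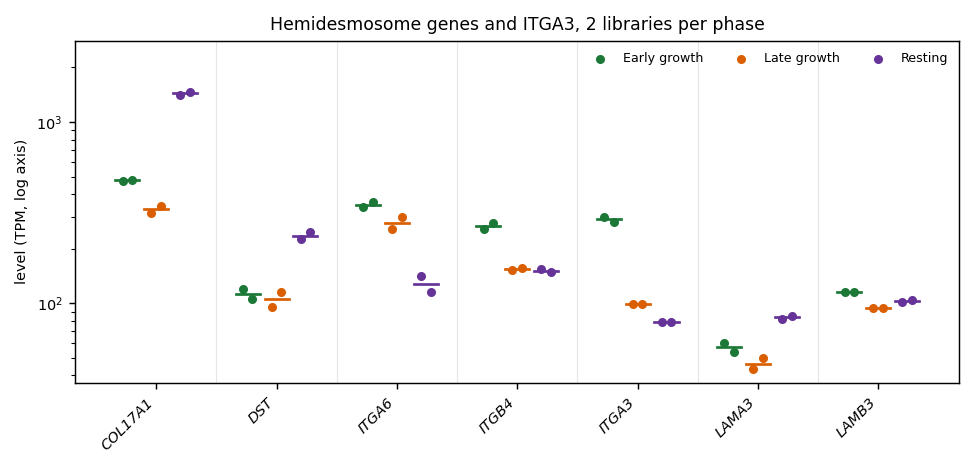
TPM on a log axis of the hemidesmosome genes and ITGA3 in each of the 6 libraries, as points coloured by phase, with a bar at the phase mean. The resting libraries of COL17A1 (1408 and 1471 TPM) lie above all other points, whereas those of ITGA6 (141 and 115 TPM) lie below its growth libraries.

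The proportions among hemidesmosome genes therefore differed by phase. These pairs were chosen after their values had been seen, and the ratios of TPM within a library are given as a description. COL17A1 relative to ITGB4 was 1.84 and 1.74 in early growth, 2.04 and 2.20 during late growth, and 9.16 and 9.86 at rest. The ratio of DST to ITGB4 was 0.469 and 0.384, then 0.623 and 0.740, then 1.47 and 1.65. Both thus stood highest over the integrin chain at rest. ITGA6 relative to ITGB4 was 1.32 and 1.31 in early growth, 1.67 and 1.90 during late growth, and 0.913 and 0.774 at rest. The resting phase was therefore the only phase with less ITGA6 than ITGB4 in both libraries. KRT15, a basal keratin of stem cell rich epithelium in mammals, had 455 and 518 TPM in early growth, 162 and 169 TPM in late growth, and 1577 and 1574 TPM at rest, and it rose from late growth to resting by 3.25 (SE 0.08, adjusted p = 3.95e-06). KRT15 was the only 1 of 11 tested genes of the basal keratinocyte list that rose at that step. The other 10 fell (median of the list −1.05), KRT5 and KRT14 by 0.43 and 0.39 (adjusted p = 0.00208 and 0.00128).

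Among the laminin receptors outside the hemidesmosome, ITGA3 fell early and ITGA7 rose at rest. ITGA3, which pairs with ITGB1 in epidermal cells, was at 301 and 280.2 TPM in early growth, 99.0 and 99.3 TPM in late growth, and 78.8 and 78.5 TPM at rest. Early growth was far above both later phases. ITGA3 fell by 1.54 from early to late growth (SE 0.08, adjusted p = 0.000156). Its later step fell by 0.33 (SE 0.08, adjusted p = 0.0145), a call that was lost without any 1 of the late growth or resting libraries, with an adjusted p from 0.00459 to 0.11 over the alternatives.

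ITGA7, the laminin receptor chain best known from muscle, was at 15.0 and 12.0 TPM in early growth, 0 and 0.118 TPM in late growth, and 149 and 157 TPM at rest. It was close to absent in both late growth libraries and ranked above ITGA6 and ITGA3 in both resting libraries. ITGA7 fell by 3.77 from early to late growth (SE 0.20, adjusted p = 0.000176) and rose by 7.19 from late growth to resting (SE 0.20, adjusted p = 5.46e-06). The size depends on the pseudocount, since a value is listed at 0: with 0.1 in place of 1 the later rise was 10.02. From early growth to resting ITGA7 rose 11.4-fold in mean TPM (log2 fold change 3.42, SE 0.20, adjusted p = 8.55e-05). Smooth muscle and pericyte markers moved the same way, 12 of 12 falling early and 12 of 12 rising on entry to rest, with 0.0331% to 4.03% of TPM. Their part in the result was not tested.

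The common beta chain fell and partly returned. ITGB1, the partner of most alpha chains described here, was at 780.1 and 739.6 TPM in early growth, 294 and 334 TPM in late growth, and 526 and 518 TPM at rest. The 3 phases did not overlap. ITGB1 fell by 1.27 from early to late growth (SE 0.08, adjusted p = 0.000277) and rose by 0.73 from late growth to resting (SE 0.08, adjusted p = 0.000615), which is 1.66-fold in mean TPM. ITGB1 remained below early growth by 0.54 at rest (adjusted p = 0.00215), with 0.0747 under median-of-ratios scaling as the highest over the alternatives. Smooth muscle, fibroblast and endothelial markers fell early in 12 of 12, 12 of 12 and 11 of 11 genes, beside 28.4% of all tested genes. They rose on entry to rest in 12, 12 and 8, beside 24.7%, whereas 10 of 11 basal keratinocyte markers fell, beside 23.1%. The part of these lists in the changes of ITGB1 was not tested.

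The beta chains that pair with ITGAV went in different directions. ITGB5, which with ITGAV forms a receptor for vitronectin, was at 439 and 412 TPM in early growth, 241 and 269.5 TPM in late growth, and 128.5 and 127.7 TPM at rest. It declined at each step without overlap, by 0.74 (SE 0.08, adjusted p = 0.00199) and by 0.99 (SE 0.08, adjusted p = 0.000236). ITGAV was at 109 and 113 TPM, then 64.3 and 84.5 TPM, then 40.5 and 49.3 TPM. It fell by 1.29 from early growth to resting (SE 0.16, adjusted p = 0.00138). ITGAV also fell at each single step, by 0.58 (adjusted p = 0.0399) and 0.71 (adjusted p = 0.0139). The first of these calls was lost without any 1 library other than late growth replicate 2 (adjusted p up to 0.191), and with median-of-ratios scaling and quantile normalization (adjusted p = 0.307 and 0.161). The second was lost without late growth replicate 2 or resting replicate 1 (0.0772 and 0.0964).

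ITGB6 was the gene that rose most from early to late growth. Its product forms, with ITGAV, an epithelial receptor that activates latent TGF-beta in mammals. ITGB6 was at 11.9 and 4.84 TPM in early growth, 28.7 and 31.1 TPM in late growth, and 21.7 and 25.0 TPM at rest. The early growth libraries were lowest and differed from each other more than the later pairs did. ITGB6 rose by 1.83 (SE 0.37, adjusted p = 0.0135), and without a late growth or a resting library the adjusted p was between 0.051 and 0.0966. ITGB8, another partner of ITGAV, had 43.5 and 30.8 TPM, then 50.3 and 62.7 TPM, then 30.0 and 32.2 TPM. It fell from late growth to resting by 0.83 (SE 0.20, adjusted p = 0.0158), a call lost without late growth replicate 2 (adjusted p = 0.111) or either resting library. Its early difference of 0.60 (adjusted p = 0.0627) was called as a rise with median-of-ratios scaling (0.94, adjusted p = 0.00957) and with quantile normalization (0.86, adjusted p = 0.0143). ITGB3, a further partner of ITGAV, was between 5.50 and 13.2 TPM and rose from late growth to resting by 0.90 (adjusted p = 0.0189, range 0.00643 to 0.122).

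The collagen receptors split between the epithelial chain and the others. ITGA2, the collagen receptor chain of keratinocytes in mammals, was at 53.7 and 27.3 TPM in early growth, 76.9 and 89.5 TPM in late growth, and 59.0 and 63.4 TPM at rest. Late growth was highest, and the early growth libraries were spread widely. ITGA2 rose by 1.09 from early to late growth (SE 0.30, adjusted p = 0.035), and without a late growth or a resting library the adjusted p was between 0.0959 and 0.185. ITGA1, a receptor for basement membrane collagen, was at 7.66 and 5.96 TPM, then 1.41 and 1.16 TPM, then 14.2 and 15.2 TPM. It fell by 1.77 (SE 0.24, adjusted p = 0.00401) and then rose by 2.78 (SE 0.24, adjusted p = 0.000308). ITGA11, a receptor for fibrillar collagen on fibroblasts, was at 12.1 and 11.9 TPM, then 0.150 and 0.168 TPM, then 3.48 and 5.92 TPM. Late growth was lowest for both of these chains, and the phases did not overlap. ITGA11 fell by 3.48 (SE 0.31, adjusted p = 0.000979) and rose by 2.26 (SE 0.31, adjusted p = 0.00175).

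ITGA8 and ITGA9 both fell early, and only ITGA8 was called higher at rest than in late growth. ITGA8, a receptor for nephronectin and other RGD proteins, was at 9.31 and 8.13 TPM in early growth, 0.163 and 0.321 TPM in late growth, and 6.09 and 6.70 TPM at rest. It fell by 2.97 (SE 0.26, adjusted p = 0.000966) and rose by 2.58 (SE 0.26, adjusted p = 0.000546). ITGA9, a receptor for tenascin and related ligands, was at 21.8 and 22.6 TPM, then 5.97 and 7.36 TPM, then 6.52 and 6.81 TPM. Late growth and resting overlapped for ITGA9. It fell by 1.61 from early to late growth (SE 0.20, adjusted p = 0.00283), and its later difference was 0.01 (SE 0.20, adjusted p = 0.987). The difference between the later changes of ITGA8 and ITGA9 was not tested. Fibroblast and dermal papilla markers fell early in 12 of 12 genes and rose on entry to rest in 12 of 12. Smooth muscle and pericyte markers also fell early in 12 of 12 and rose later in 12 of 12. Of all tested genes 28.4% fell early and 24.7% rose later. The part of either list in the changes of ITGA1, ITGA8 and ITGA11 was not tested.

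The integrin chains of blood cells had the lowest means of all integrin chains over the 6 libraries. ITGB2, the beta chain of leukocytes, was at 3.79 and 4.43 TPM in early growth, 1.46 and 1.19 TPM in late growth, and 4.60 and 4.68 TPM at rest. It fell by 1.14 (SE 0.27, adjusted p = 0.022) and rose by 1.28 (SE 0.27, adjusted p = 0.00933), and both calls were lost without either late growth library, with an adjusted p of 0.102 and 0.13 for the first and 0.0516 and 0.0705 for the second. Quantile normalization gave −0.35 (adjusted p = 0.42) and 0.63 (adjusted p = 0.125), and median-of-ratios scaling gave −0.89 (adjusted p = 0.0527) for the first. ITGA4, a leukocyte receptor chain for fibronectin, lay between 0.263 and 2.75 TPM and was not called at any step, although its late to resting difference of 1.25 (adjusted p = 0.0518) was called under 8 alternatives, with the lowest adjusted p at 0.0085. ITGA2B, which with ITGB3 forms the fibrinogen receptor of platelets in mammals, was at 0.616 and 0.780 TPM, then 4.23 and 2.01 TPM, and was listed at 0 in both resting libraries. ITGA2B fell by 1.99 from late growth to resting (SE 0.39, adjusted p = 0.00759, and 0.0629 without late growth replicate 1). The early to late difference of ITGA2B, 1.23 (adjusted p = 0.0571), was not called. It was called as a rise with no filter (adjusted p = 0.0453), median-of-ratios scaling (adjusted p = 0.0454) and quantile normalization (adjusted p = 0.0303). The leukocyte markers as a list had 4 falls of 10 tested genes early, beside 28.4% of all tested genes. At the later step 8 of these markers rose, beside 24.7% of all tested genes. Their part in the changes of ITGB2 and ITGA4 was not tested. Red cell and thrombocyte markers had 6 rises and 1 fall of 9 tested genes at the later step, beside 24.7% and 23.1%. The part of these markers in the change of ITGA2B was not tested. ITGB3BP, the centromere gene, was at 25.3 and 26.8 TPM, then 14.2 and 18.8 TPM, then 4.54 and 3.21 TPM, and it fell by 2.48 from early growth to resting (SE 0.23, adjusted p = 0.000454).

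**Figure D3:**
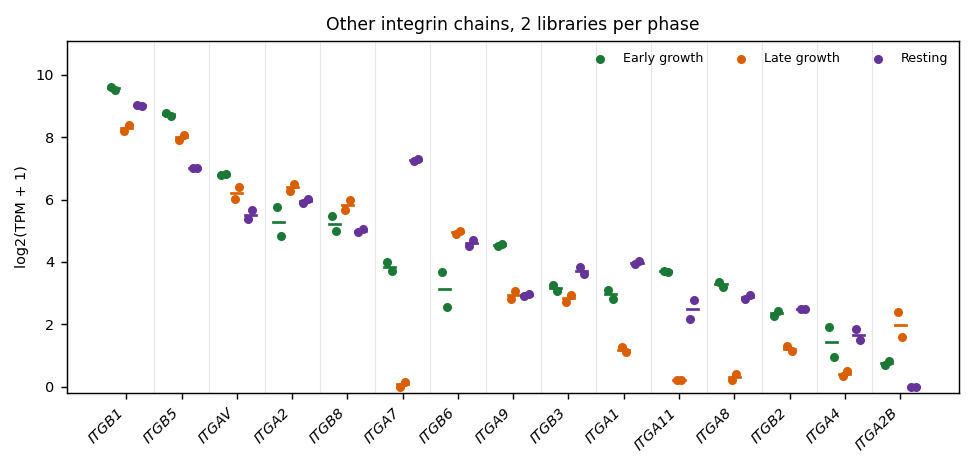
Log2(TPM + 1) of the 15 integrin chains outside the hemidesmosome plot in each of the 6 libraries, with a bar at the phase mean. ITGB1 and ITGB5 have the highest means over the 6 libraries, and ITGA7 runs from 0 and 0.118 TPM in late growth to 149 and 157 TPM at rest.

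Of the 10 laminin chains tested, 8 fell and none rose from early to late growth, beside the 28.4% and 5.24% of all tested genes. From late growth to resting 7 rose and none fell, beside 24.7% and 23.1%. LAMA5, which joins LAMB1 and LAMC1 in the laminin of the epidermal basement membrane, was at 93.3 and 87.0 TPM in early growth, 50.8 and 52.2 TPM in late growth, and 99.1 and 103 TPM at rest. Late growth was lowest, and the phases did not overlap. LAMA5 fell by 0.80 (SE 0.09, adjusted p = 0.00215) and rose by 0.96 (SE 0.09, adjusted p = 0.000406).

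Chains typical of vessel and muscle basement membranes changed by more than LAMA5 did at both steps. LAMA4, the alpha chain of vascular laminins, was at 22.1 and 18.0 TPM in early growth, 0 and 0.301 TPM in late growth, and 85.5 and 85.9 TPM at rest. It almost vanished in late growth and was highest at rest. LAMA4 fell by 4.20 (SE 0.22, adjusted p = 0.000177) and rose by 6.25 (SE 0.22, adjusted p = 1.22e-05, and 8.74 with a pseudocount of 0.1). LAMA2, the alpha chain of muscle and nerve laminin, was at 6.55 and 3.11 TPM, then 0.190 and 0.154 TPM, then 20.0 and 21.9 TPM. It showed the same order of phases without overlap. LAMA2 rose by 4.23 from late growth to resting (SE 0.35, adjusted p = 0.000242) after it fell by 2.25 (SE 0.35, adjusted p = 0.00582). The early fall of LAMA2 had an adjusted p of 0.0506 and 0.0513 without either late growth library. LAMA1, a chain of embryonic laminin, was listed at 0 in 5 libraries and at 0.0767 TPM in resting replicate 2.

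The beta chains showed a wide gap between LAMB1 and LAMB2 in growth and similar levels at rest. LAMB2, the beta chain of muscle and vessel laminins, was at 28.9 and 31.0 TPM in early growth, 7.11 and 4.65 TPM in late growth, and 109 and 103 TPM at rest. LAMB2 fell by 2.19 (SE 0.20, adjusted p = 0.00104) and then rose 18.0-fold in mean TPM (log2 fold change 3.98, SE 0.20, adjusted p = 3.81e-05). LAMB1, the more widespread beta chain, was at 197 and 184 TPM, then 107 and 113 TPM, then 116 and 121 TPM. The resting libraries were only slightly above late growth. LAMB1 fell by 0.79 (SE 0.08, adjusted p = 0.00164), and its later difference was 0.11 (SE 0.08, adjusted p = 0.331). LAMB2 relative to LAMB1 was 0.146 and 0.168 in early growth, 0.0664 and 0.0411 during late growth, and 0.937 and 0.846 at rest. LAMB4 was listed between 0 and 0.413 TPM in all libraries.

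Of the gamma chains, LAMC1, the partner of LAMA5 and LAMA4, was at 30.7 and 18.3 TPM in early growth, 14.4 and 15.8 TPM in late growth, and 45.8 and 54.1 TPM at rest. It rose by 1.66 on entry to rest (SE 0.25, adjusted p = 0.00276), and its early difference of −0.62 (adjusted p = 0.111) was called without early growth replicate 2 (−0.98, adjusted p = 0.0177). LAMC3 was at 7.77 and 5.99 TPM, then 0.192 and 0 TPM, then 13.1 and 12.6 TPM. As for LAMA4, late growth was almost without it. LAMC3 fell by 2.84 (SE 0.27, adjusted p = 0.00124) and rose by 3.66 (SE 0.27, adjusted p = 0.000156). Beside all of these chains, endothelial markers fell early in 11 of 11 genes and rose in 8 of 11 on entry to rest, and smooth muscle markers moved as given above for ITGA7. The part of either tissue in the laminin results was not tested.

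**Figure D4:**
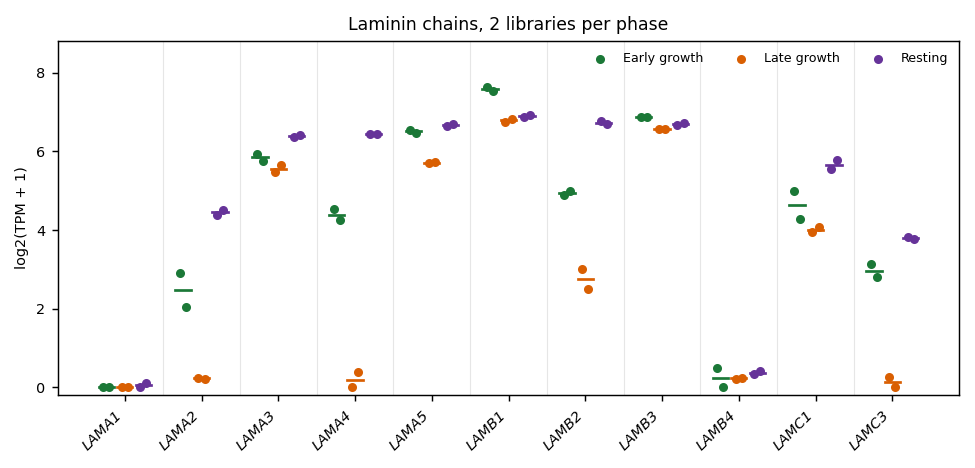
Log2(TPM + 1) of 11 laminin chains in each of the 6 libraries, with a bar at the phase mean. LAMA2, LAMA4, LAMB2 and LAMC3 are lowest in late growth and highest at rest, and LAMA1 and LAMB4 stay near 0 throughout.

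The mixture of chains in the libraries differed accordingly, given here as each chain's share of the summed TPM of its kind and without a test. Of laminin alpha RNA, LAMA3 and LAMA5 together made up almost all in late growth, with LAMA3 at 45.9% and 48.6% and LAMA5 at 53.9% and 51.0%. At rest LAMA3 had 28.7% and 28.7%, LAMA5 34.6% and 34.8%, and LAMA4 29.8% and 29.1%. Of laminin beta RNA, LAMB2 had 8.43% and 9.35% in early growth, 3.40% and 2.19% during late growth, and 33.3% and 31.3% at rest. LAMA4 and LAMB2 thus took their smallest shares in late growth and their largest at rest. Among integrin alpha chains, ITGA6 led with 38.9% and 42.7% during early growth and 50.3% and 51.1% during late growth. At rest ITGA7 led with 29.8% and 31.4%, before ITGA6 with 28.1% and 23.1%. Among integrin beta chains, ITGB1 was first in every library, with 50.6% and 50.2%, then 38.0% and 38.7%, then 59.9% and 59.7%. All 33 genes together took 0.372% and 0.357% of TPM in early growth, 0.209% and 0.233% during late growth, and 0.381% and 0.389% at rest.

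**Figure D5:**
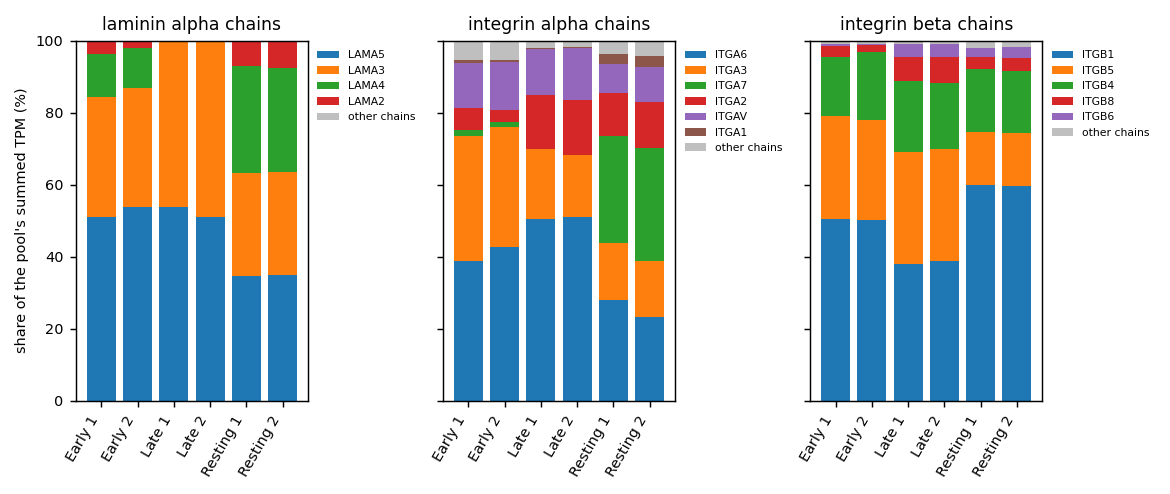
Share (%) of the summed TPM of laminin alpha, integrin alpha and integrin beta chains that each chain took in each of the 6 libraries. LAMA4 reaches 29.8% and 29.1% and ITGA7 29.8% and 31.4% in the resting phase, whereas both are below 1% in late growth.

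Set directly against early growth, the resting phase held more COL17A1, ITGA7, LAMA2, LAMA4 and LAMB2, and less ITGA3, ITGA6 and ITGB5. Over the same interval smooth muscle and pericyte markers rose in 11 of 12 genes (median 4.65), whereas endothelial markers fell in 8 of 11 and rose in none (median −1.60), and their part in these results was not tested. The 11 genes that were higher at rest were COL17A1, DST, ITGA1, ITGA7, ITGB6, LAMA2, LAMA3, LAMA4, LAMB2, LAMC1 and LAMC3. Among them, LAMA4 rose by 2.05 (SE 0.22, adjusted p = 0.000734), LAMA2 by 1.98 (SE 0.35, adjusted p = 0.00493) and LAMB2 by 1.79 (SE 0.20, adjusted p = 0.000823). The rises of ITGA1 (1.01, adjusted p = 0.016), LAMA3 (0.54, adjusted p = 0.011), LAMC1 (1.04, adjusted p = 0.0166), LAMC3 (0.82, adjusted p = 0.0464) and ITGB6 (1.48, adjusted p = 0.0176) were each lost without either resting library, with highest adjusted p values over the alternatives of 0.0841, 0.0708, 0.122, 0.267 and 0.123. The LAMC3 call was also lost with either other pseudocount, either other filter, library weights, the replicate block or only the 2 phases compared. Both LAMC3 and ITGB6 lost the call without either late growth library, and ITGB6 with only the 2 phases compared (adjusted p = 0.0529). The 11 genes that were lower at rest included ITGA3, ITGA6, ITGA9, ITGA11, ITGAV, ITGB1, ITGB4, ITGB5, ITGB3BP and LAMB1. ITGA3 fell by 1.87 (SE 0.08, adjusted p = 2.94e-05), ITGB5 by 1.72 (SE 0.08, adjusted p = 4.44e-05) and ITGB4 by 0.81 (SE 0.07, adjusted p = 0.000398). The fall of ITGA11 by 1.22 (adjusted p = 0.019) was lost without resting replicate 1 (adjusted p = 0.0748, the highest over the alternatives). LAMA5, ITGA8 and LAMB3 differed between early growth and rest by 0.16, −0.39 and −0.18, with no call (adjusted p = 0.182, 0.257 and 0.105). LAMA5 was called higher at rest with median-of-ratios scaling (0.49, adjusted p = 0.00575), quantile normalization (0.53, adjusted p = 0.00355) and rescaling without muscle and red cell genes (0.31, adjusted p = 0.0319), and LAMB3 ranged from −0.20 to 0.18 over the alternatives.

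Partners of laminin in the basement membrane fell early and mostly rose at rest. Of 23 tested genes, 20 fell and none rose from early to late growth (median −1.80), beside 28.4% and 5.24% of all tested genes (median −0.31). From late growth to resting 16 rose and 3 fell (median 1.82), beside 24.7% and 23.1% (median 0.02). The 3 that fell were COL7A1, FREM2 and TINAGL1, by 1.26, 1.42 and 1.36 (adjusted p = 0.000369, 0.005 and 0.00124). COL7A1 had means of 114, 37.8 and 15.2 TPM in early growth, late growth and rest. Smooth muscle, fibroblast and endothelial markers took their smallest shares of TPM in late growth, and their part in these changes was not tested. COL4A1, the main basement membrane collagen, was at 113 and 102 TPM in early growth, 0.730 and 0.787 TPM in late growth, and 267 and 264 TPM at rest. The fall was the largest of the list: COL4A1 fell by 5.94 (SE 0.12, adjusted p = 1.1e-05) and rose by 7.24 (SE 0.12, adjusted p = 1.59e-06). NID1, which links laminin to collagen, fell by 5.69 (adjusted p = 3.15e-05) and rose by 4.30 (adjusted p = 2.01e-05). COL4A2 fell by 5.18 (adjusted p = 5.85e-05) and rose by 6.57 (adjusted p = 6.9e-06), and SMOC1, a calcium-binding matrix protein, rose by 6.23 (adjusted p = 7.34e-05). SPARC, a collagen-binding matrix protein and the gene of the list with the highest mean, was at 882 and 950.5 TPM, then 205 and 209 TPM, then 1438 and 1487 TPM.

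Of 20 tested integrin ligands other than laminin, 1 rose and 15 fell from early to late growth (median −1.69), beside 5.24% and 28.4% of all tested genes. From late growth to resting 17 rose and none fell (median 2.50), beside 24.7% and 23.1%. From early growth to resting 7 rose and 4 fell, beside 15.8% and 34.0%. FN1, fibronectin, was at 82.3 and 70.7 TPM in early growth, 23.4 and 26.2 TPM in late growth, and 668 and 620.1 TPM at rest. It rose by 4.65 on entry to rest (SE 0.11, adjusted p = 4.18e-06). POSTN, a matrix protein bound by integrins of ITGAV, rose by 7.74 (adjusted p = 1.38e-05), and SPP1, osteopontin, went from 0 in both late growth libraries to 95.6 and 74.6 TPM. The fibrillar collagens COL1A1, COL1A2 and COL3A1 fell early by 5.88, 5.74 and 4.34 (adjusted p = 2.78e-05, 8.98e-06 and 1.15e-05). These 3 collagens and POSTN are also in the fibroblast list, whose share of TPM was lowest in late growth.

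Of 30 tested genes of integrin activation and focal adhesion, 1 rose and 11 fell from early to late growth (median −0.25), beside 5.24% and 28.4% of all tested genes and their median of −0.31. From late growth to resting 18 rose and 5 fell (median 0.93), beside 24.7% and 23.1% and a median of 0.02. FLNA, an actin crosslinker that binds integrin tails, was at 143 and 151 TPM in early growth, 65.1 and 67.6 TPM in late growth, and 1565 and 1657 TPM at rest. It rose by 4.58 on entry to rest (SE 0.07, adjusted p = 1.47e-06), and TNS1, a tensin, rose by 4.16 (adjusted p = 2.57e-06). LIMS2 rose by 3.59 (adjusted p = 0.00235). PTK2, the focal adhesion kinase, fell by 1.40 (adjusted p = 0.00115) and rose by 1.94 (adjusted p = 0.000114). PARVB, a parvin of the complex around integrin-linked kinase, had another course, at 23.9 and 21.2 TPM, then 62.4 and 67.9 TPM, then 5.43 and 5.59 TPM. PARVB rose by 1.49 (SE 0.15, adjusted p = 0.00152) and then fell by 3.34 (SE 0.15, adjusted p = 2.75e-05), and PARVG fell early by 1.69 (adjusted p = 0.013). ACTN1, an actinin and the gene of the list with the highest mean over the 6 libraries, lay between 687 and 1096 TPM.

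Other laminin receptors and tetraspanins had 1 rise and 8 falls of 13 tested genes early (median −0.88), and 9 rises and 3 falls on entry to rest (median 0.65), beside 5.24% and 28.4%, then 24.7% and 23.1%, of all tested genes. SGCE and SGCB, sarcoglycans of the dystroglycan complex in muscle, rose at the later step by 5.43 and 4.21 (adjusted p = 5.56e-05 and 1.38e-05). DAG1, dystroglycan, which binds laminin in many tissues, was at 151 and 167 TPM in early growth, 85.7 and 78.3 TPM in late growth, and 113 and 124 TPM at rest. CD9, a tetraspanin, fell by 1.43 (adjusted p = 0.0101) and rose by 1.99 (adjusted p = 0.00157). CD151, the tetraspanin that binds the laminin receptor integrins, rose by 0.74 (adjusted p = 0.0011) after an early difference of 0.05 (adjusted p = 0.68). RPSA, a ribosomal protein also known as the laminin receptor, was the most abundant of the list in every library, at 5849.5 and 6106 TPM, then 5864 and 5617 TPM, then 3989.6 and 4045 TPM.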

How the data were processed

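Papilla ectoderm RNA of 3 phases was sequenced by the study as single reads from TruSeq RNA v2 libraries, a kit that does not mark strand. The TPM values were computed by the authors with StringTie on GRCg6a and were used as deposited, with 1 column per library (aligner: not given in the sources used here). Read depth is unknown, and the only measure of precision is the difference within each pair of libraries. An exact test of 2 against 2 libraries cannot go below p = 0.333, so every call rests on a spread shared over genes. That spread was also pooled over the 3 phases, which differed. The root mean square SD of log2 values between replicates was 0.562 in early growth, 0.272 in late growth and 0.365 at rest.

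Values were transformed as log2(TPM + 1), and the 13063 genes with a mean above 1 TPM entered 1 limma fit of all 3 phases, with a trend of the variance (limma 3.58.1, R 4.3.3). The p values were adjusted by Benjamini-Hochberg over all tested genes, and the fit was tested on simulated data. The study's methods used DESeq2 on counts, which TPM does not allow.

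The members and lists were chosen with earlier results of these data known. All members are counted, and the values of 1 of them are not reported here. Values in each library are given for hemidesmosome genes, ITGB1, the most abundant gene of each role and the 5 largest rises and falls at each step. Of other lists, the 3 called genes with the largest change at each step and the most abundant gene are named. DAG1, CD151, KRT5, KRT14, KRT15, COL7A1, FREM2 and TINAGL1 were chosen after their values were seen. Symbols were taken as given, and all 33 were found in the RefSeq gene table. Sequences are not used here.

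Each result was recomputed with a pseudocount of 0.1 or 0.5, no filter, a mean above 5 TPM, median-of-ratios scaling, quantile normalization, rescaling without muscle and red cell genes, robust moderation, library weights, only the 2 phases compared, a replicate block, leaving out each library and added fold thresholds. Deviations of libraries with the same replicate number correlated at −0.0289, 0.0083 and 0.0149, and the numbers were not used for pairing.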

Additional observations from a re-analysis of the deposited data

How the results depend on the processing

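Setting aside the added fold thresholds, 15 of the 22 members called kept their call under every alternative from early to late growth, 17 of 23 from late growth to resting and 14 of 22 from early growth to resting. Over single members and alternatives, 83 values lost a call and 34 gained it. LAMB3 from early to late growth was the 1 called value that changed sign, to 0.0502 with median-of-ratios scaling, and the all-gene median moves by about the same amount there. The count of members higher in late growth than in early growth was 4 with median-of-ratios scaling, 4 with quantile normalization, 0 with only the 2 phases compared and 0 to 3 when leaving out a library. From late growth to resting, 4 to 8 members fell when leaving out a library, and 4 without late growth replicate 2 or without resting replicate 1. From early growth to resting 6 to 12 rose, and 6 without either resting library. With an adjusted p under 0.01 and a log2 fold change above 2, the counts higher and lower were 0 and 7, then 9 and 0, then 2 and 1. With an adjusted p under 0.05 and a log2 fold change above 1, the counts higher were 2, 12 and 9. The counts lower were 12, 3 and 7. Shares of all tested genes at these added thresholds were not computed, so these counts have no background beside them. With only the 2 phases compared, 452 of 13063 tested genes were higher in late growth than in early growth. Leaving out a library also changed the counts of all tested genes. Rescaling without muscle and red cell genes moved the late to resting median of all genes from 0.02 to 0.16. With it 20 members were higher and 6 lower, beside 3748 and 2464 of 13036 tested genes.

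With the replicate number as a replicate block, 2 members rose and 19 fell from early to late growth. From late growth to resting 16 rose and 7 fell, and from early growth to resting 10 rose and 11 fell. Of all 13063 tested genes, 547 rose and 3153 fell with the block, then 2968 and 2789, then 1885 and 4134. The block lost the calls of LAMB3 from early to late growth (adjusted p = 0.0683) and of LAMC3 from early growth to resting (adjusted p = 0.0715). Depth is unknown, so levels near 0 TPM carry no stated precision.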
